A study of Bos taurus with 3 samples.

Results

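The ATF4 and amino acid stress response is described here through 10 genes, ATF4, ATF5, DDIT3, TRIB3, CHAC1, ASNS, PSAT1, PHGDH, SHMT2 and SESN2, taken by symbol from a table of 31903 genes. All 10 symbols had a row. The cells were BFF116, a culture of bovine fetal fibroblasts that served as nuclear donors for somatic cell nuclear transfer, the cloning method in which a somatic nucleus is placed in an enucleated egg. There was 1 group, 3 biological replicates of 70000 cells each, and every replicate had been kept without serum for 48 h before harvest. No fed or otherwise unstressed cells are among the samples, so no level given here can be tied to starvation, and the only comparison the design allows is between replicates. Separate cultures or animals are not named for the replicates, and the p-values below measure only the spread between these samples, which may be technical.

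Cells that lack an amino acid, or whose endoplasmic reticulum holds misfolded protein, phosphorylate the translation factor eIF2. General protein synthesis then slows, while short upstream reading frames let ribosomes reach the coding sequence of ATF4 and a few other messages. ATF4 is a basic leucine zipper (bZIP) transcription factor that pairs with C/EBP and other bZIP proteins and activates genes for the uptake and synthesis of amino acids, for one-carbon metabolism and for feedback on the response itself. Because ATF4 and ATF5 are controlled largely at translation, their RNA is not a measure of their protein.

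Levels are given as CPM, the reads of a gene per 1000000 reads of the effective size of its library. A gene is called detected where it stood at 1 CPM or more in each of the 3 libraries. Gene counts were 8608350, 4842331 and 7122651 in replicates 1 to 3. Lengths of the RNAs were not used here, so CPM values are compared between libraries for 1 gene. The genes named from a list were picked by their CPM, which also carries their lengths, so neither that choice nor a list's median gives an order of levels between genes. Of fixed fibroblast markers 10 of 10 were detected, against 0 of 5 epithelial, 0 of 4 skeletal muscle, 1 of 4 endothelial, 1 of 5 leukocyte and 2 of 5 neural markers with a row. The summed level of each of these other lists lay between 0.475 and 9.47 CPM per library, against 105016 to 116263 CPM for the fibroblast list, and PTPRC, KDR, EPCAM and MYOD1 had 0 reads. In such bulk samples, fewer cells expressing a gene and less RNA per cell cannot be told apart.

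All 10 members were detected, as were 34.6% of all listed genes. ATF4, ASNS and PSAT1 stood at or above 100 CPM in each library, as did 4.33% of listed genes, and this threshold was chosen after the values were seen. The median of the members' mean levels was 79.5 CPM, against 4.96 CPM for the 18039 genes with a read and 23.1 CPM for the 10434 genes that had at least 10 reads in each library, as 9 of the members did. The value of 79.5 CPM covers all 10 members, ATF5 included. These medians carry gene lengths and are a description only. The 10 genes together held 0.181, 0.190 and 0.187% of gene counts in replicates 1 to 3.

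**Figure D1:**
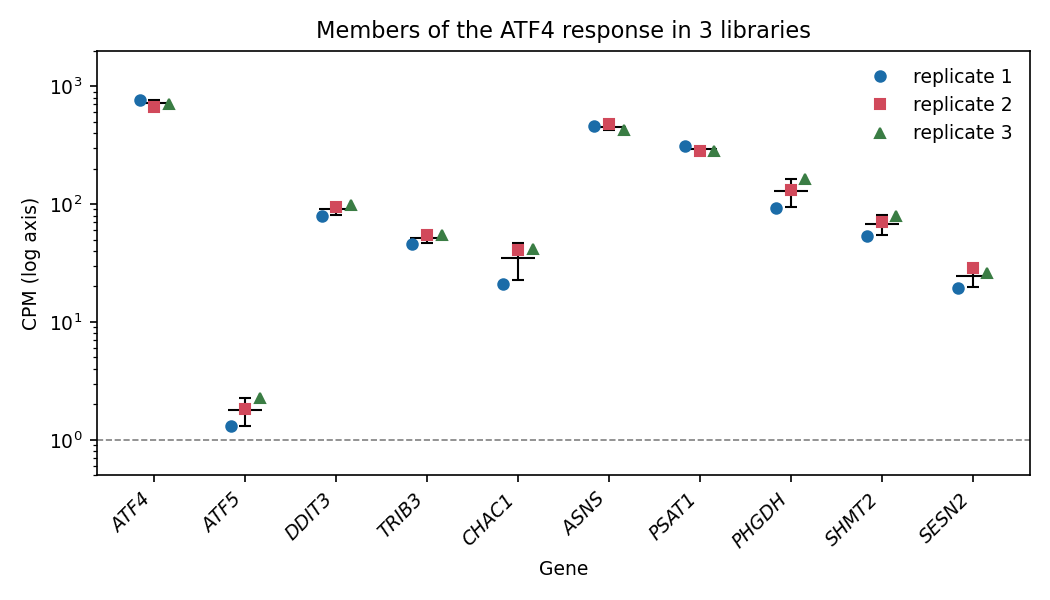
CPM (log axis) of the 10 members in each of the 3 libraries; the horizontal bar is the mean, the error bar the SD (n = 3), and the dashed line marks 1 CPM. ATF5 lies just above that line in each library, and the other 9 genes lie between 19.2 and 760 CPM.

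Among the transcription factors, the RNA of ATF4, the central activator of the response, had 6397, 3323 and 5062 reads, or 760, 670 and 712 CPM. The libraries lay close to each other, with replicate 1 highest, replicate 2 lowest and 1.13-fold between them. The mean was 714 ± 45.1 CPM (SD, n = 3), a coefficient of variation (CV) of 6.32%. Counting error alone at these read numbers would give a CV of 1.48%.

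DDIT3, which encodes CHOP, a bZIP protein that promotes cell death when stress persists, had 673, 471 and 696 reads, or 79.9, 94.9 and 97.9 CPM. Replicate 1 was the lowest, 1.23-fold below replicate 3, and the mean was 90.9 ± 9.63 CPM (SD, n = 3). On the RefSeq assembly ARS-UCD2.0, which may not be the build used for counting, the span of DDIT3 overlaps that of the methionyl-tRNA synthetase gene MARS (975, 487 and 754 reads). The strand setting of the counting is not known, so reads from a shared stretch cannot be told apart by strand.

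ATF5, a bZIP factor closely related to ATF4, had few reads, with 11, 9 and 16 reads. These reads correspond to 1.31, 1.81 and 2.25 CPM, and the exact Poisson 95% intervals, which cover counting error only, ran from 0.652 to 2.34, from 0.829 to 3.44 and from 1.29 to 3.66 CPM. The 3 intervals overlap, and the observed CV of 26.4% was below the 29.7% that counting alone gives, so no difference between libraries was detectable at this depth. The genes that flank ATF5 on ARS-UCD2.0 carried reads, with TBC1D17 at 68, 47 and 46, AKT1S1 at 61, 70 and 94, VRK3 at 35, 26 and 33 and ZNF473 at 162, 133 and 205. NUP62 (53, 46 and 50 reads) and IL4I1 (5, 11 and 0 reads) overlap the span of ATF5 there, and reads that fall on more than 1 gene can be missing from all of them. The part of such reads in the low count of ATF5 was not tested.

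TRIB3, a pseudokinase that binds ATF4 and CHOP and dampens their activity, stood at 45.6, 54.6 and 54.2 CPM, with a mean of 51.5 ± 5.07 (SD, n = 3). Replicates 2 and 3 were nearly equal and replicate 1 lay 1.20-fold below replicate 2.

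CHAC1, an enzyme that degrades glutathione, had the widest spread of the 9 members that had at least 10 reads in each library. It stood at 20.8, 41.1 and 41.8 CPM from 175, 204 and 297 reads, with a mean of 34.6 ± 11.9 (SD, n = 3). Replicate 1 alone set this spread. It lay 2.01-fold below replicate 3, while replicates 2 and 3 differed 1.02-fold when replicate 1 was left out. The exact Poisson 95% interval of replicate 1, 17.8 to 24.1 CPM, lay below those of replicates 2 and 3 (35.7 to 47.2 and 37.2 to 46.8 CPM), so the difference was larger than counting error. Such a gap was not particular to CHAC1. For DDIT3, PHGDH, SHMT2 and SESN2 the replicate 1 interval also lay below both others. For ATF4 it lay above them (741 to 779 CPM, against 647 to 693 and 693 to 732 CPM). For TRIB3, ASNS, PSAT1 and ATF5 it overlapped that of replicate 2.

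SESN2, a leucine sensor that restrains the growth kinase complex mTORC1, stood at 19.2, 28.6 and 26.2 CPM, with a mean of 24.7 ± 4.86 (SD, n = 3). Replicate 1 was again lowest, 1.49-fold below replicate 2, and the remaining libraries differed 1.09-fold without it.

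The 4 enzymes did not share an order of libraries. ASNS, which makes asparagine from aspartate and glutamine, stood at 462, 479 and 423 CPM, with a mean of 455 ± 28.8 (SD, n = 3) and 1.13-fold between the extreme libraries. Its lowest library was replicate 3. PSAT1, the aminotransferase of the serine pathway, stood at 310, 285 and 279 CPM, with a mean of 291 ± 16.4 (SD, n = 3), and was highest in replicate 1.

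PHGDH, which catalyses the step of serine synthesis before PSAT1, was lowest in replicate 1, at 93.2, 133 and 162 CPM, with a mean of 129 ± 34.3 (SD, n = 3). Replicate 1 was 1.73-fold below replicate 3, and the other libraries differed 1.22-fold without it. SHMT2, the mitochondrial enzyme that converts serine to glycine and hands a carbon to folate, stood at 54.0, 70.3 and 79.9 CPM, with a mean of 68.1 ± 13.1 (SD, n = 3). Its order of libraries was that of PHGDH, with replicate 1 1.48-fold below replicate 3. The NDUFA4L2 span overlaps that of SHMT2 on ARS-UCD2.0, and NDUFA4L2 had 1, 0 and 14 reads.

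**Figure D2:**
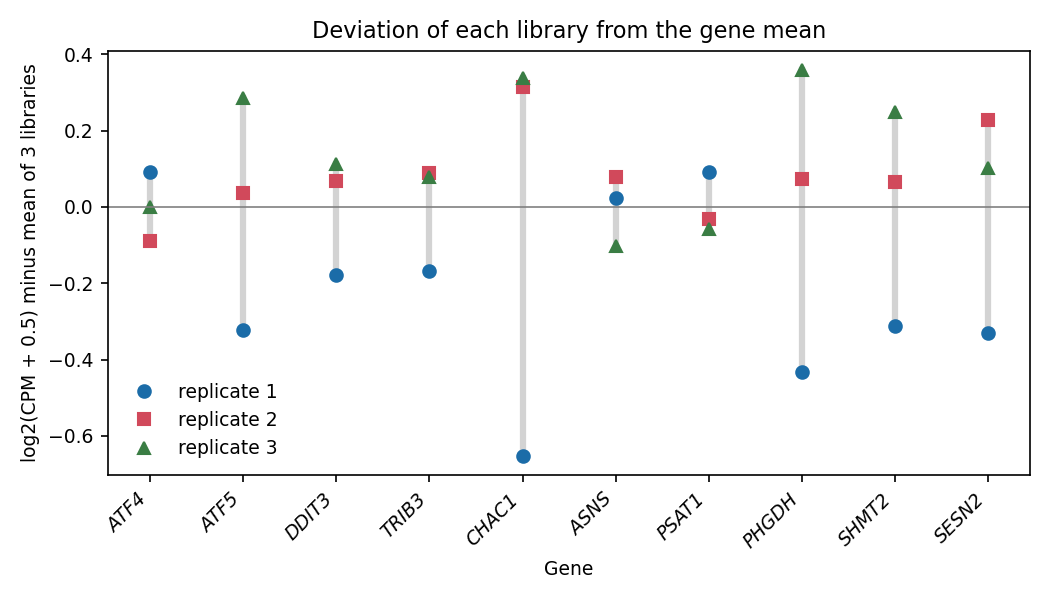
Deviation of log2(CPM + 0.5) in each library from the mean of the 3 libraries, for each member; the grey bar spans the libraries. Replicate 1 is lowest for 7 genes, ATF5 with its few reads included, and most for CHAC1 (-0.65) and PHGDH (-0.43). ATF4 and PSAT1 are highest there (0.09 each). Of the 10434 genes that had at least 10 reads in each library, 40.3% are lowest in replicate 1 and 39.3% are highest there.

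Whether any member varied between replicates more than genes of its level was tested across the 10434 genes that had at least 10 reads in each library. The common biological coefficient of variation (BCV), the spread between replicates beyond counting, was 0.273. ATF5 did not enter because of its 9 reads in replicate 2. By edgeR's dispersion trend with a negative binomial Pearson statistic and Benjamini-Hochberg adjustment, 0 of 9 members were called at an adjusted p under 0.05, against 0.0192% of all genes tested, so calls were rare altogether. At an unadjusted p under 0.05 the count was 547 genes of 10434 and again 0 of 9 members. The smallest unadjusted edgeR p among the members was that of CHAC1, at 0.17 (adjusted p = 1.00), followed by PHGDH at 0.27 (adjusted p = 1.00). With DESeq2's dispersion trend in place of edgeR's, 0 of 9 members were called, and with no count filter, where ATF5 entered, 0 of 10.

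The CV of the 9 members ran from 5.63% for PSAT1 to 34.5% for CHAC1, with a median of 10.6%, against a median of 22.4% over all genes tested. CHAC1 and PHGDH lay above the BCV of the trend at their level, 25.1 and 22.9%. The other 7 lay below it, among them ATF4 at a trend value of 20.6% and ASNS at 21.1%. The CV falls with the level and the trend BCV leaves out counting error, so the pair of medians describes these libraries and was not tested.

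**Figure D3:**
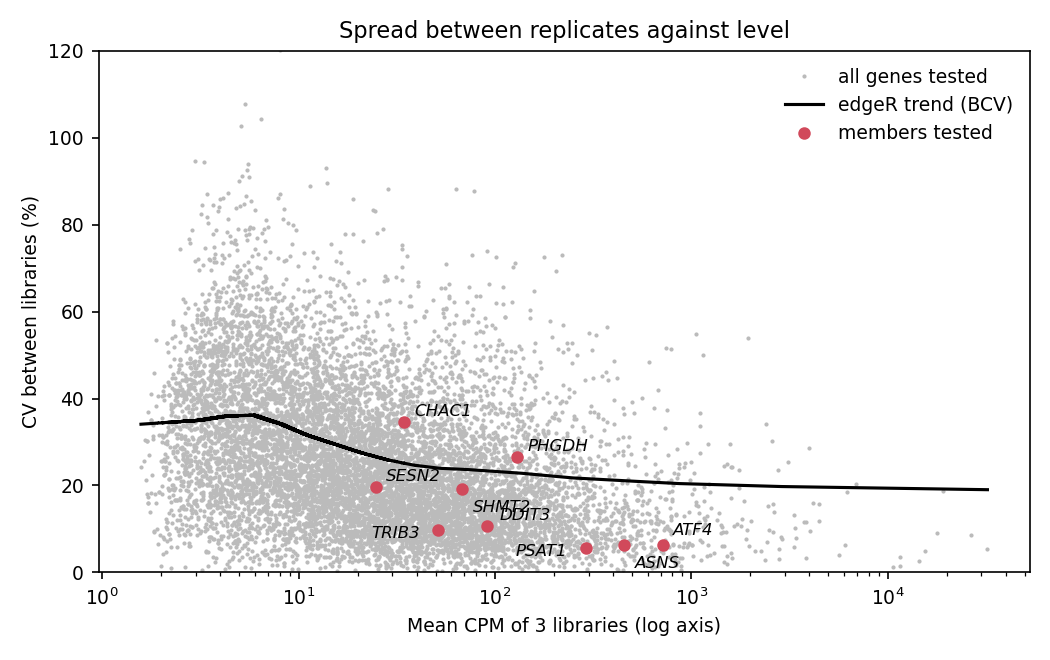
CV between the 3 libraries (%) against mean CPM (log axis) for the genes tested (grey), the edgeR trend of the BCV (line) and the 9 members tested (red); 1 gene lies above the axis limit of 120%. PSAT1, ATF4 and ASNS sit near 6%, and CHAC1 (34.5%) and PHGDH (26.6%) sit above the line.

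Of the 9 members tested, 6 had their lowest CPM in replicate 1, against 40.3% of all genes tested. This count was made after the values were seen. Replicate 1 differed more from the others over all these genes too, with a median absolute log2 difference of 0.35 to replicate 2 and 0.46 to replicate 3, against 0.28 between replicates 2 and 3. It was also the deepest library. The part of these library differences in the lower levels of CHAC1, PHGDH, SHMT2, SESN2, DDIT3 and TRIB3 was not tested.

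Since a ratio of 2 genes carries their lengths, only its change from library to library was read. With 3 libraries, leaving out the highest or lowest narrows a range by construction, and leaving out the more distant one removes most of it. The values without 1 library are therefore given as a description only. The log2 ratio of ATF4 over DDIT3 varied by 0.43 over the 3 libraries and by 0.044 without replicate 1, and that of ATF4 over ATF5 by 0.70 and 0.16. With 11, 9 and 16 reads for ATF5, the ATF4 over ATF5 values allow no statement on differences between libraries. ATF4 over ATF3, another stress-induced bZIP factor, varied by 0.63, and by 0.16 without replicate 2. DDIT3 over the chaperone gene HSPA5 varied by 0.44, by 0.19 without replicate 1 and by 0.25 without replicate 3.

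PHGDH over PSAT1, successive steps of 1 pathway, varied by 0.94, with replicate 1 lowest, and by 0.31 without replicate 1. PSAT1 over PSPH, the last step of that pathway, varied by 0.37, by 0.14 without replicate 1 and by 0.23 without replicate 3. ASNS over the glutamine synthetase gene GLUL varied by 0.20, by 0.075 without replicate 1 and by 0.12 without replicate 3.

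The members with paralogs were set against them in the same way. SESN2 varied by 1.29 against SESN1, by 0.80 without replicate 1 and by 0.49 without replicate 2. Against SESN3 it varied by 1.17, and by 0.22 without replicate 1. CHAC1 varied by 0.40 against CHAC2, and by 0.0053 without replicate 1. CHAC2 had only 34, 31 and 45 reads, and counting alone gives it a CV of 16.7%. Neither value is therefore read as a change or as a kept ratio. TRIB3 varied by 1.22 against TRIB1, by 0.42 without replicate 2 and by 0.80 without replicate 3, and by 1.22 against TRIB2, which became 0.25 without replicate 3. Over the 15 planned pairs in which both genes were detected, the range lay between 0.20 and 1.53.

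The genes whose profile over the 3 libraries was most like that of ATF4, by the root-mean-square difference of centred log2 levels, were ALG8 (0.00095), PDCD6IP (0.0019) and DLC1 (0.0032). Among the members PSAT1 was nearest at 0.047, with 308 of the other genes tested nearer, ASNS stood at 0.12 with 1648 nearer, and CHAC1 was farthest at 0.53 with 9099 nearer. A profile over 3 libraries leaves so little to match that this is a description only.

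The rest of the pathway was followed in 11 further lists, which held 158 distinct genes with a row beside the members. Of these, 147 were detected, against 34.6% of all listed genes. By the same edgeR test 0 of 145 tested genes were called after adjustment, against 0.0192% of all genes tested. At an unadjusted p under 0.05 the count was 5 of 145, against 547 of all 10434 genes tested.

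The 4 kinases that phosphorylate eIF2 were detected. EIF2AK4 encodes GCN2, the sensor of uncharged tRNA, and stood at 64.7, 65.5 and 61.1 CPM, close in all 3 libraries. EIF2AK3 encodes PERK, the sensor in the endoplasmic reticulum, and stood at 51.3, 33.5 and 34.2 CPM, highest in replicate 1. The log2 ratio of EIF2AK4 over EIF2AK3 varied by 0.63 over the libraries and by 0.13 without replicate 1. All 9 of 9 genes of the list of eIF2 kinases and eIF2 dephosphorylation were detected, with a median of 54.7 CPM. Among its genes were PPP1R15B (257 ± 33.1), DNAJC3 (123 ± 21.7), an inhibitor of eIF2 kinases, and EIF2AK4 (63.8 ± 2.37; SD, n = 3 each).

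The phosphatase subunits that reverse the signal are PPP1R15B and PPP1R15A. PPP1R15B, the constitutive subunit CReP, stood at 291, 255 and 225 CPM. PPP1R15A, the stress-induced subunit GADD34, had 20, 26 and 42 reads, or 2.38, 5.24 and 5.91 CPM. Their log2 ratio varied by 1.53, the widest of the planned pairs, and by 0.34 without replicate 1. Counting alone gives PPP1R15A a CV of 19.3%. By the edgeR test neither gene was called more variable than the trend (unadjusted p = 0.71 for PPP1R15B and 0.33 for PPP1R15A). The observed CV of PPP1R15A was 41.6%, against a trend BCV of 36.0%, which leaves out counting error. All 8 of 8 subunit genes of eIF2 and of its exchange factor eIF2B were detected, among them EIF2S2 (498 ± 67.0), EIF2S3 (330 ± 27.9) and EIF2S1 (98.2 ± 16.6).

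Of the bZIP factors 18 of 19 were detected, with a median of 50.7 CPM. Among them were ATF6 (319 ± 9.48), a sensor of misfolded protein, NFE2L2 (214 ± 48.5), the regulator of antioxidant genes, and XBP1 (146 ± 4.13), a factor of the unfolded protein response. ATF3 stood at 24.1, 29.4 and 20.1 CPM, highest in replicate 2 and lowest in replicate 3. CEBPA had 0 reads, so that a level of up to 0.605 CPM in replicate 2 is possible, provided reads of this gene could be assigned. CEBPB and ATF6B had no row and were not analysed here. JUNB (10.8, 25.6 and 48.5 CPM; adjusted p = 0.29) and CREB3L1 (42.0, 102 and 140 CPM; adjusted p = 0.53) had an unadjusted edgeR p under 0.05 and are named after their values were seen.

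The serine, glycine and one-carbon list had 16 of 18 genes detected, with a median of 21.8 CPM. Among its genes were the mitochondrial ALDH1L2 (762 ± 46.2), which oxidizes formyl-folate, DLD (220 ± 34.0), the dihydrolipoamide dehydrogenase of the glycine cleavage system and other complexes, and PSPH (122 ± 23.2). In each of 2 pairs of enzymes, the cytosolic form was the exception. SHMT1, the cytosolic counterpart of SHMT2, had 2, 0 and 0 reads, and ALDH1L1, that of ALDH1L2, had 0 reads in every library.

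Further steps of the folate cycle were present in both forms. The mitochondrial MTHFD2 stood at 61.9, 62.3 and 57.1 CPM and the cytosolic MTHFD1 at 21.9, 23.2 and 25.2 CPM, and their log2 ratio varied by 0.31, and by 0.074 without replicate 3. GCSH, the carrier protein of glycine cleavage, stood at 37.5, 10.5 and 8.58 CPM. It was high in replicate 1, opposite to SHMT2 and PHGDH, and did not pass after adjustment by the edgeR test (adjusted p = 0.13). It is named after its values were seen.

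Of the other amino acid enzymes 16 of 18 were detected, with a median of 52.5 CPM, and among them were OAT (187 ± 23.1), an aminotransferase of ornithine, and BCAT1 (129 ± 13.5), an aminotransferase of branched-chain amino acids. ASS1, the enzyme that makes argininosuccinate for arginine synthesis, had 4, 7 and 20 reads and was below 1 CPM in replicate 1. GLUL stood at 66.2, 63.1 and 52.8 CPM.

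All 10 of 10 amino acid transporters of the response were detected, with a median of 87.4 CPM. SLC38A2, a transporter of small neutral amino acids that is induced when they are short, stood at 1484, 1212 and 1026 CPM, highest in replicate 1. SLC38A1 (152 ± 24.1) and SLC1A4 (135 ± 19.3) also carry neutral amino acids.

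Cytosolic aminoacyl-tRNA synthetases, many of them targets of ATF4, had 18 of 18 genes detected, with a list median of 200 CPM and a median CV of 11.3%. GARS stood at 920, 912 and 865 CPM, IARS at 696, 601 and 532 CPM and WARS at 491, 629 and 674 CPM. EPRS and FARSB had no row and were not analysed here.

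Other effectors of the response had 11 of 14 genes detected, with a median of 31.9 CPM, among them the tRNA exporter gene XPOT (691 ± 120.4), the autophagy receptor gene SQSTM1 (140 ± 26.7) and VLDLR (106 ± 18.9), a lipoprotein receptor. The exceptions were 3 genes, STC2, FGF21 and GDF15. STC2 had 0, 0 and 1 reads, FGF21 0, 4 and 3, and GDF15 11, 10 and 6. GDF15 stood at 1.31, 2.02 and 0.844 CPM and was below 1 CPM only in replicate 3.

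Among amino acid sensing genes at the lysosome, the setting in which SESN2 acts, 26 of 28 were detected, with a median of 16.5 CPM. RHEB (214 ± 13.1), the GTPase that activates mTORC1, RRAGA (189 ± 12.0), a Rag GTPase, and SESN3 (189 ± 45.5) were among them. RRAGD had 6, 2 and 17 reads and KPTN 2, 11 and 9. SESN1 stood at 13.1, 7.66 and 12.5 CPM, lowest in replicate 2, and SESN3 at 241, 157 and 168 CPM, highest in replicate 1. LAMTOR3, named after its values were seen, stood at 95.0, 55.8 and 32.6 CPM and did not pass by the edgeR test (adjusted p = 0.61).

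The other arms of the unfolded protein response had 12 of 13 genes detected, with a median of 71.2 CPM. HSP90B1 stood at 2940, 3264 and 3819 CPM, HSPA5 at 3443, 3424 and 3102 CPM, and SEL1L, a part of the degradation machinery of the endoplasmic reticulum, at 952, 772 and 657 CPM. SDF2L1 had 5, 3 and 21 reads.

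Paralogs of the members had 5 of 6 genes detected and a list median of 8.31 CPM. TRIB1 stood at 3.44, 2.22 and 5.77 CPM, TRIB2 at 22.5, 32.0 and 13.4 CPM and CHAC2 at 4.04, 6.25 and 6.33 CPM. On 34, 31 and 45 reads CHAC2 was lowest in replicate 1, as CHAC1 was, whereas TRIB1 and TRIB2 did not share the library order of TRIB3.

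**Figure D4:**
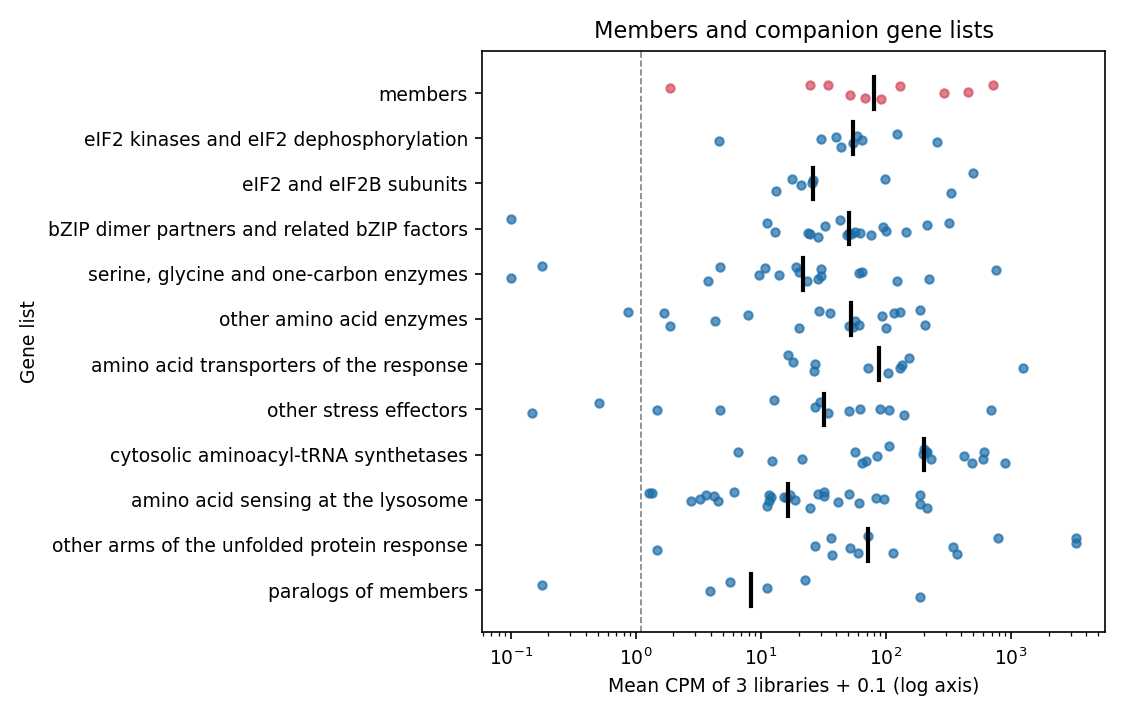
Mean CPM + 0.1 (log axis) of each gene with a row, for the members (red) and the 11 other lists (blue); the black bar is the median and the dashed line marks 1 CPM. The synthetases have a median of 200 CPM and the paralogs of members 8.31 CPM, and 1 member, ATF5, lies near the dashed line.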

How the data were processed

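RNA of 3 BFF116 libraries was amplified from cell lysates by a single-primer isothermal method and sequenced as single reads of 100 bases, per the labels' protocols. The authors deposited whole-number read counts per gene symbol, not normalized. The submitters' processing notes name the tools HTSeq (version 0.6.1), TopHat2 (version 2.0.10) and bcl2fastq (version 2.18.0.12). Genome build, annotation and strand mode were not given in the sources used here. In all, 5 summary rows entered neither library sizes nor tests. Per library, reads in no annotated gene were 58.9 to 62.0% of the total, reads with several alignments 7.52 to 7.99% and reads on more than 1 gene 0.235 to 0.253%.

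CPM values were computed with edgeR 4.0.16 (R 4.3.3) and TMM factors of 0.978, 1.02 and 0.998. The limit that a count of 0 allows (3 reads) is 0.356 to 0.605 CPM. It covers counting error only, as do the intervals, since PCR reads are not independent molecules. Spread between replicates was tested over all genes that had at least 10 reads in each library, with an intercept-only fit at the trended dispersion, a negative binomial Pearson statistic referred to chi-square (2 degrees of freedom) and Benjamini-Hochberg adjustment, at a threshold of 0.05. Alternatives used size factors or the dispersion trend of DESeq2 1.42.0, CPM without TMM factors, no filter, and each replicate left out.

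The members and lists were chosen with earlier results of these data known. Named genes were the members, the 3 highest in CPM of each list, genes below 1 CPM in some library where these numbered 5 or fewer, genes called, genes of 16 planned pairs and the 3 nearest to ATF4. A few genes that this rule names are not reported here. The planned length-corrected gene ratios and promoter motif search were not made, since RNA lengths and promoter sequences were not used here. Names and neighbours of all 10 members came from RefSeq (ARS-UCD2.0), which held 20250 of the listed symbols.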

Additional observations from a re-analysis of the deposited data

How the results depend on the processing

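The count of 10 detected members was the same with DESeq2 size factors, without TMM factors and with each replicate left out. It was 9 when detection required at least 10 reads in each library, where ATF5 dropped out. The count of 0 members called more variable than the trend was unchanged under the alternatives tried for it. That count was not made for CPM without TMM factors. The members' median of 79.5 CPM ranged from 74.9 to 86.7 when a replicate was left out. All 50 recomputed member means stayed within 1 SD. For the means with a replicate left out, 3 libraries make this nearly certain in advance, so it is no sign of stability. Without replicate 1, 4 members rather than 3 were at 100 CPM or more, PHGDH being the fourth. Over all genes, 5 were called with DESeq2 size factors, 6 without replicate 1 and 0 without replicate 2 or 3, against 2; the cause was not tested. Of 75 recomputed ranges of gene ratios, 15 moved by more than 1 SD, each when a replicate was left out, which by construction narrows a range. With 1 group, no effect of a condition could be measured, and genes under about 10 reads, such as ATF5, allow no statement on differences between libraries. No paired analysis was possible because there is only 1 group. Gene lengths as an alternative were not run.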
